A study of Monodelphis domestica and Mus musculus with 26 samples.

Results

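The genes described here, apart from the peptide hormone gene INSL3, make steroid hormones in the testis or control their making. There are 10 of them, chosen by symbol: STAR, CYP11A1, CYP17A1, HSD3B1, HSD17B3, CYP19A1, SRD5A1, LHCGR, INSL3 and NR5A1. Matching without regard to case found all 10 among 32532 mouse features. In the opossum single-cell data 5 of them were found among 32251 features (STAR, CYP11A1, CYP19A1, SRD5A1 and NR5A1), and the same 5 among 34985 genes of the opossum bulk tables. CYP17A1, HSD3B1, HSD17B3, LHCGR and INSL3 are not analysed in opossum here.

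Testicular steroids are made mainly by Leydig cells, which lie between the seminiferous tubules. Luteinizing hormone binds its receptor LHCGR, cyclic AMP rises, and STAR moves cholesterol into the mitochondria. There CYP11A1 cuts the cholesterol side chain, and HSD3B1, CYP17A1 and HSD17B3 carry the product on to testosterone. SRD5A1 reduces testosterone to dihydrotestosterone, and CYP19A1, aromatase, turns androgens into estrogens. INSL3 is a peptide hormone of Leydig cells, and NR5A1, also called steroidogenic factor 1, is a nuclear receptor that switches on many of these genes in Leydig, Sertoli and adrenal cells.

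The study compared gene regulation in spermatogenesis between mouse and opossum (the gray short-tailed opossum, Monodelphis domestica, a marsupial). Whole testes were dissociated and passed through a 100-micron filter, and single-cell libraries were made, 3 of adult mouse testis and 3 of adult opossum testis. The mice are given as 8 to 16 weeks old, and C57BL6/J is named on replicates 1 and 2. Bulk RNA was sequenced from opossum testis suspensions at 1 month (n = 2), 2 months (n = 4), 3 months (n = 4), 4 months (n = 3) and in adults (n = 7). Of these, 2-month replicates 2 to 4 and adult replicate 2 were made by ribosomal RNA depletion and the other 16 by poly(A) selection. No animal is described as treated or genetically altered. The labels do not say whether replicates came from separate animals, so p-values measure the spread between these samples.

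The single-cell libraries held 22710048 to 65263953 unique molecular identifiers (UMIs, 1 per captured transcript) over 10861 to 13451 barcodes, and 5127 to 8715 cells per library were kept. Mouse replicates 1 and 2 shared 198 barcodes, and any other pair of libraries shared 0 to 43. The bulk libraries held 2.90 to 7.12 gigabases of aligned sequence. In bulk, 3 libraries were set apart after their values were seen: 4-month replicate 3, with 16566 genes covered against 20162 to 25295 elsewhere, and adult replicates 1 and 3. Their median r over 19300 genes with libraries of the same age was 0.812, 0.834 and 0.856, against 0.912 to 0.948 in the other adults. It was also low in 2-month replicate 1 (0.843), the only poly(A) library of its age, and in 4-month replicate 1 (0.856), which were not set apart. In 4-month replicate 3 the Sertoli markers WT1 and FSHR were 0.29 and 0.123 TPM (a level scaled by transcript length and to the same total in every library), while the other 4-month libraries had 62.9 and 46.5 TPM of WT1 and 11.8 and 12.97 TPM of FSHR. WT1 was also low at 1 month (10.55 and 11.04 TPM) and in adult replicates 1 and 3 (8.77 and 13.2 TPM). Some results that include these libraries are also given without them.

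Cells were clustered and named without the 10 genes and without 75 other genes of the steroid pathway. The level of these genes thus did not place a cell in its class. The Leydig markers still include steroid synthesis genes such as Hsd3b6, Fdx1 and Fdxr, so this class was not named independently of that pathway. Leydig-like cells were 134, 322 and 71 cells in the mouse libraries and 587, 1059 and 1620 in the opossum libraries. That was 0.815% to 4.47% of mouse cells and 11.45% to 21.9% of opossum cells. The name rested in mouse on 20 markers, among them Hsd3b6, Fdx1, Scarb1 and Klk1b21, and in the 4 opossum clusters on 4 to 9 markers, FDX1 and EPHX1 among them in each. Of the 4 opossum clusters 1 had a Leydig marker among its 10 leading genes by fold. Levels are the deposited UMI estimates, which are not whole numbers, summed over a class and scaled to the same total in every class and library (CPM). The files also store entries at 0, so a cell counts below as having a UMI of a gene only where its estimate rounds to at least 1.

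The canonical promoters of Cyp11a1, Cyp17a1 and Cyp19a1 are shown because the first pair had their highest level in Leydig-like cells and the last in spermatocytes. Each is the 250 bases before the canonical transcript start in the GRCm39 assembly with GENCODE vM39, read 5′ to 3′ on the gene's strand. The letters CAAGGNCA, a form of the element that NR5A1 binds, were searched on both strands, and a match is in capitals. The Cyp11a1 stretch is chr9:57921616-57921865 on the plus strand, inside the gene's annotated span but in no exon. The Cyp17a1 stretch is chr19:46661612-46661861 on the minus strand, upstream of the gene. The Cyp19a1 stretch is chr9:54100807-54101056 on the minus strand, inside the annotated span and in no exon.
Cyp11a1: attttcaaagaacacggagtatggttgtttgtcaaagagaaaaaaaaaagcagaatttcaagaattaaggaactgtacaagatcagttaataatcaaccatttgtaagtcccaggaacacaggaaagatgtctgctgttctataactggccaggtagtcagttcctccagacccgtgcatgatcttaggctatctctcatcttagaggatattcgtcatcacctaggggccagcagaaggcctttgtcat
Cyp17a1: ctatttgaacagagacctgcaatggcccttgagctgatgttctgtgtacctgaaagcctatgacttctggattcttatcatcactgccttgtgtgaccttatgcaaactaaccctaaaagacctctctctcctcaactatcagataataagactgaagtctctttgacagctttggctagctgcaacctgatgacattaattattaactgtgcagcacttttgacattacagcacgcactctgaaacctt
Cyp19a1: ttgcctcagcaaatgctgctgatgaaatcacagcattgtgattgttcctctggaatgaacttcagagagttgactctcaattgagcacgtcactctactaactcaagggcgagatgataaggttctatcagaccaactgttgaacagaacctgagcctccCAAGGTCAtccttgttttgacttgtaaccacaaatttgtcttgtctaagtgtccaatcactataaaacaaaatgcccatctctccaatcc
Of the 10 genes only Cyp19a1 held these letters in this window, starting 90 bases before the transcript start, against 1156 of 21770 mouse promoters of the same length (5.31%). A match is a description of letters, and no match says only that they are not in this window.

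In mouse, 9 of the 10 genes were highest in Leydig-like cells among 9 cell classes, and 8 of these had no overlap with the next class. A mouse Leydig-like cell had UMIs from a median of 7 of the 10 genes in each of the 3 libraries, and 90.3%, 93.5% and 97.2% of these cells had at least 5. In opossum, 3 of the 5 genes were highest in Leydig-like cells (STAR, CYP11A1 and NR5A1), and the medians were 1, 2 and 2 of 5 genes per cell. Over both species this made 12 of 15 gene and species pairs. Each class mean below is over 3 libraries. Mouse replicate 3 had only 6 immune and 4 endothelial cells, which count in these means but not in the figure or the tests.

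**Figure D1:**
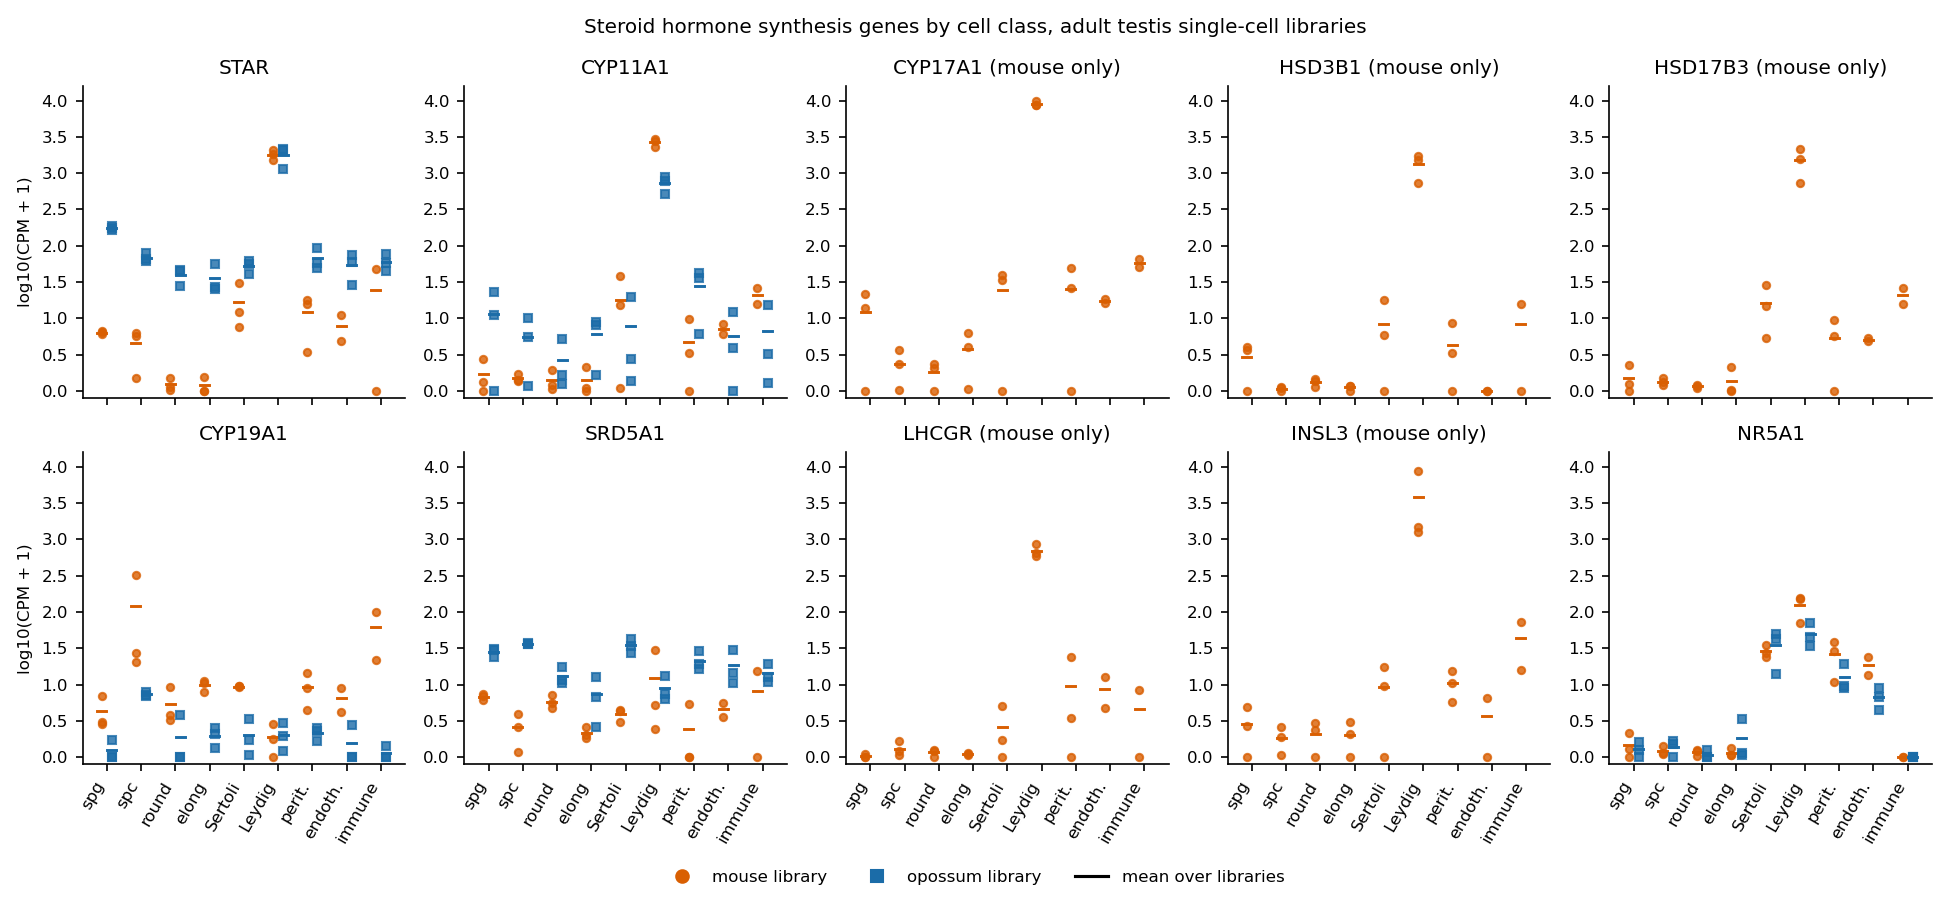
Level of each of the 10 genes by cell class, as log10(CPM + 1), with 1 panel per gene, orange circles for the 3 mouse libraries, blue squares for the 3 opossum libraries and bars for the means. A class with fewer than 20 cells in a library is not drawn for that library and not in the mean. STAR, CYP11A1 and, in mouse, CYP17A1, HSD3B1, HSD17B3, LHCGR and INSL3 stand far above the other classes in Leydig-like cells, while CYP19A1 is highest in spermatocytes.

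Star, the cholesterol carrier (ENSMUSG00000031574, chromosome 8: 26296583 to 26306010, plus strand, GRCm39), was at 1502, 1803 and 2102 CPM in the mouse Leydig-like cells of replicates 1, 2 and 3. The next class, Sertoli-like cells, had 15.8 ± 12.1 CPM (SD, n = 3), and the ranges did not overlap. In opossum STAR (ENSMODG00000010748, chromosome 1: 572754686 to 572820145, minus strand, as the bulk tables give it) was at 1137, 2052 and 2168 CPM in Leydig-like cells. The next opossum class was spermatogonia at 175 ± 10.6 CPM (SD, n = 3), also without overlap.

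Cyp11a1, the side-chain cleavage enzyme (ENSMUSG00000032323, chromosome 9: 57913694 to 57935933, plus strand), had 2908, 2271 and 2760 CPM in mouse Leydig-like cells and 16.9 ± 18.5 CPM (SD, n = 3) in Sertoli-like cells. Opossum CYP11A1 (ENSMODG00000009689, chromosome 1: 22190256 to 22249532, minus strand) had 519, 789 and 884 CPM in Leydig-like cells and 26.9 ± 19.0 CPM (SD, n = 3) in peritubular or stromal cells. Its opossum span shares 2373 bases with ENSMODG00000040799 and 2373 with ENSMODG00000046400, both on the other strand. Whether counting used strand is not given in the sources used here. Leydig-like cells held 98.1% ± 2.03 of all Cyp11a1 UMIs of kept cells in mouse and 92.9% ± 4.99 in opossum (SD, n = 3). For STAR these shares were 93.3% ± 4.07 and 80.4% ± 13.7 (SD, n = 3). Both genes were thus concentrated in this class in each species, STAR in opossum over a range of 64.7% to 89.4%.

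The enzymes between pregnenolone and testosterone were measured in mouse only. Cyp17a1 (ENSMUSG00000003555, chromosome 19: 46655604 to 46661611, minus strand) had 8539, 8768 and 9775 CPM in Leydig-like cells, and the next class, immune cells, had 38.2 ± 33.9 CPM (SD, n = 3). Hsd3b1 (ENSMUSG00000027871, chromosome 3: 98757367 to 98767116, minus strand) had 1722, 1500 and 733 CPM, against 7.31 ± 8.72 CPM (SD, n = 3) in Sertoli-like cells. Hsd17b3 (ENSMUSG00000033122, chromosome 13: 64206080 to 64237208, minus strand) had 2164, 1574 and 738.5 CPM, against 15.2 ± 11.8 CPM (SD, n = 3) in Sertoli-like cells. For both hydroxysteroid dehydrogenases replicate 3 was the lowest library, and in all 3 genes Leydig-like cells lay above every other class. Hsd3b1 has close paralogs such as Hsd3b6, and how reads shared between them were counted is not given in the sources used here.

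Of the genes that mark the hormone response, Lhcgr (ENSMUSG00000024107, chromosome 17: 89023909 to 89099473, minus strand) had 640.2, 863 and 599 CPM in mouse Leydig-like cells. No other class had a mean above 8.44 CPM. Insl3 (ENSMUSG00000079019, chromosome 8: 72141858 to 72143225, plus strand) had 1261, 1476 and 8863 CPM, so its mean of 3867 ± 4329 CPM (SD, n = 3) was set by replicate 3. Without replicate 3 both libraries were still above the 72.1 CPM of the highest immune library, the next class.

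Background was read from classes not known to make steroids, and the part of free RNA in it was not tested. When each cell was thinned to 1000 UMIs, Cyp17a1 was seen in 95.6%, 96.5% and 96.8% of mouse Leydig-like cells and in 0.922%, 0.775% and 0% of round spermatids. Round spermatids had the lowest mean share of the named classes (0.566%). Immune cells (3.28%), Sertoli-like cells (2.78%) and peritubular or stromal cells (2.50%) had the highest after Leydig-like cells. Unthinned, 34 of 1742, 28 of 2472 and 0 of 2387 round spermatids had a Cyp17a1 UMI, at median depths of 11920, 8026 and 6409 UMIs, against 99.3%, 99.1% and 97.2% of Leydig-like cells at 6361, 3462 and 5317. The 0 of 2387 allows a share of up to 0.126%, for counting error only. Counting every stored entry, also those at 0, would give 160, 262 and 24 round spermatids. Thinned shares in mouse Leydig-like cells were 78.6% ± 16.5 for Insl3, 75.6% ± 6.89 for Cyp11a1, 69.8% ± 5.56 for Star, 63.9% ± 13.5 for Hsd17b3, 50.3% ± 13.1 for Hsd3b1 and 46.6% ± 6.62 for Lhcgr (SD, n = 3). In opossum the thinned share for STAR was 67.0% ± 16.7 and for CYP11A1 42.4% ± 14.2 (SD, n = 3). Replicate 3 of mouse had the lowest share of round spermatids with a Cyp17a1 UMI.

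Nr5a1, the transcription factor (ENSMUSG00000026751, chromosome 2: 38581468 to 38604642, minus strand), was found in several somatic classes. In mouse it had 155, 149.8 and 69.1 CPM in Leydig-like cells, 27.8 ± 6.05 CPM in Sertoli-like cells and 25.4 ± 14.2 CPM in peritubular or stromal cells (SD, n = 3). Leydig-like cells stood above both, which overlapped each other. In opossum NR5A1 (ENSMODG00000019746, chromosome 1: 418886964 to 418937832, minus strand) had 43.7, 33.2 and 69.6 CPM in Leydig-like cells and 13.2, 48.3 and 41.1 CPM in Sertoli-like cells, and these ranges overlapped. Germ cell classes had means below 0.85 CPM in both species. Immune cells gave no NR5A1 UMI in either species, which allows up to 13.8 CPM over 84 mouse cells and 0.915 CPM over 1095 opossum cells. These floors cover counting error only.

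Srd5a1, the 5-alpha reductase (ENSMUSG00000021594, chromosome 13: 69721568 to 69759750, minus strand), was low in mouse and not concentrated in Leydig-like cells. It had 4.17, 1.49 and 28.9 CPM there, and its range overlapped that of spermatogonia at 5.83 ± 0.59 CPM (SD, n = 3). Opossum SRD5A1 (ENSMODG00000002043, chromosome 3: 101309342 to 101400921, plus strand) was highest in spermatocytes at 35.4 ± 0.841 CPM, then in Sertoli-like cells at 33.9 ± 7.72, spermatogonia at 27.4 ± 3.95 and peritubular or stromal cells at 20.5 ± 6.56 CPM (SD, n = 3). Spermatocytes, Sertoli-like cells and spermatogonia followed one another without a clear gap. Opossum Leydig-like cells were eighth of the 9 classes with 6.52, 5.41 and 12.0 CPM, and all 3 lay below the lowest Sertoli-like library at 26.7 CPM. In opossum 784 bases of the gene's span are shared with NSUN2 on the other strand, and whether counting used strand is not given in the sources used here.

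Cyp19a1, aromatase (ENSMUSG00000032274, chromosome 9: 54072601 to 54175394, minus strand), had its highest level in germ cells. Mouse spermatocytes had 26.3, 19.5 and 320 CPM, with replicate 3 far above the other libraries, and Leydig-like cells had 1.83, 0 and 0.785 CPM, the lowest mean of the 9 classes. The second class was immune cells with 21.0, 100.2 and 8.39 CPM, which rests on 84 cells and overlaps spermatocytes. Within spermatocytes 1 cluster of 786 cells held 555, 400 and 902 CPM in replicates 1, 2 and 3, so its level was high in each library while 610 of its cells came from replicate 3. A second cluster of 753 cells, left unnamed, had spermatocyte markers and 229.5, 196 and 448 CPM. In opossum CYP19A1 (ENSMODG00000002101, chromosome 1: 181960021 to 181991046, minus strand) had 6.94, 6.23 and 6.09 CPM in spermatocytes, above the 1.16 ± 0.446 CPM (SD, n = 3) of peritubular or stromal cells without overlap. Spermatocytes were thus the highest class in both species, at a lower level in opossum.

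STAR had UMIs beyond Leydig-like cells in opossum. Its means in the other 8 classes ran from 34.98 CPM in elongating spermatids to 175 CPM in spermatogonia, where mouse means ran from 0.187 to 15.8 CPM. Without the elongating cluster of lowest depth (below) the elongating mean was 12.4 ± 8.83 CPM (SD, n = 3). After thinning, 15.8%, 17.5% and 14.6% of opossum spermatogonia had a STAR UMI, and 4.95% to 8.41% of Sertoli-like cells. Unthinned these shares were 84.9%, 69.2% and 41.9% in spermatogonia at median depths of 19960, 8382 and 4803 UMIs, and 30.1%, 16.7% and 19.6% in Sertoli-like cells at 4538, 3343 and 2460. The number of STAR UMIs per CYP11A1 UMI was 2.19, 2.60 and 2.45 in opossum Leydig-like cells. It was 8.60 and 16.3 in the spermatogonia of replicates 2 and 3, 13.3 and 7.14 in their spermatocytes, and 35 in the Sertoli-like cells of replicate 1, in classes with at least 3 UMIs of each gene. It was 41.6 in elongating spermatids of replicate 2 without that cluster, against 7.11, 36.7 and 3.66 in the 3 libraries with it, and in replicate 3 it was 10.9 in round spermatids, 6.70 in endothelial and 5.25 in immune cells. In peritubular or stromal cells it was 1.37, 11.3 and 2.30, near the Leydig value in replicate 3 and below it in replicate 1. In mouse the ratio was 0.517, 0.794 and 0.762 in Leydig-like cells and 6.93, 1.31 and 13.7 in spermatocytes. It was 3.31 in spermatogonia of replicate 1 and 1.63 in peritubular or stromal cells of replicate 2. In mouse Sertoli-like cells and round spermatids of replicates 1 and 2 it was 0.476 to 0.805, and in elongating spermatids of replicate 1 it was 0.487. In opossum STAR shares 657 bases at its end with ASH2L, a histone methyltransferase subunit that lies on the other strand. It also shares 157 bases with BAG4, on the other strand too. ASH2L had 244 ± 4.76 CPM in spermatocytes, 123 ± 12.8 in spermatogonia and 66.2 ± 14.5 in Leydig-like cells (SD, n = 3), a different order from that of STAR. Reads from the shared stretches cannot be told apart without strand, and their part in the STAR counts was not tested.

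Opossum Leydig-like cells fell into 4 clusters, numbered 4, 7, 9 and 14, that differed in these genes. Cluster 9 (771 cells, of which 644 came from replicate 3) had NR5A1 at 163, 157 and 133 CPM in replicates 1, 2 and 3. Cluster 4 (1119 cells) had 20.2, 22.8 and 25.9 CPM and cluster 7 (818 cells) 57.7, 41.7 and 55.2 CPM. NR5A1 was therefore highest in cluster 9 in every library. STAR was at 1458, 2281 and 2899 CPM in cluster 4, 1484, 1971 and 2627 in cluster 7, and 821, 464.5 and 876 in cluster 9. CYP11A1 was at 672, 817.5 and 993 CPM in cluster 4, 687, 822 and 1033 in cluster 7, and 401, 441 and 593 in cluster 9. In each library STAR and CYP11A1 were lower in cluster 9 than in clusters 4 and 7.

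Cluster 14 (558 cells, of which 408 came from replicate 1) had a median depth of 1264 UMIs, and only 4 of the Leydig markers placed it. It had STAR at 603, 941 and 1017 CPM, CYP11A1 at 251, 366 and 548 CPM and NR5A1 at 3.51, 0 and 27.7 CPM, the last on 23 cells. SRD5A1 was at 15.5, 29.0 and 17.7 CPM there, against 0 to 3.87 CPM in cluster 4, 0.51 to 10.96 in cluster 7 and 14.8, 5.39 and 23.0 in cluster 9, so clusters 14 and 9 overlapped. STAR was thus lower there than in clusters 4 and 7 in each library, and so was NR5A1 in replicates 1 and 2. These are descriptions of clusters cut from the same cells, and no test was made between them.

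**Figure D2:**
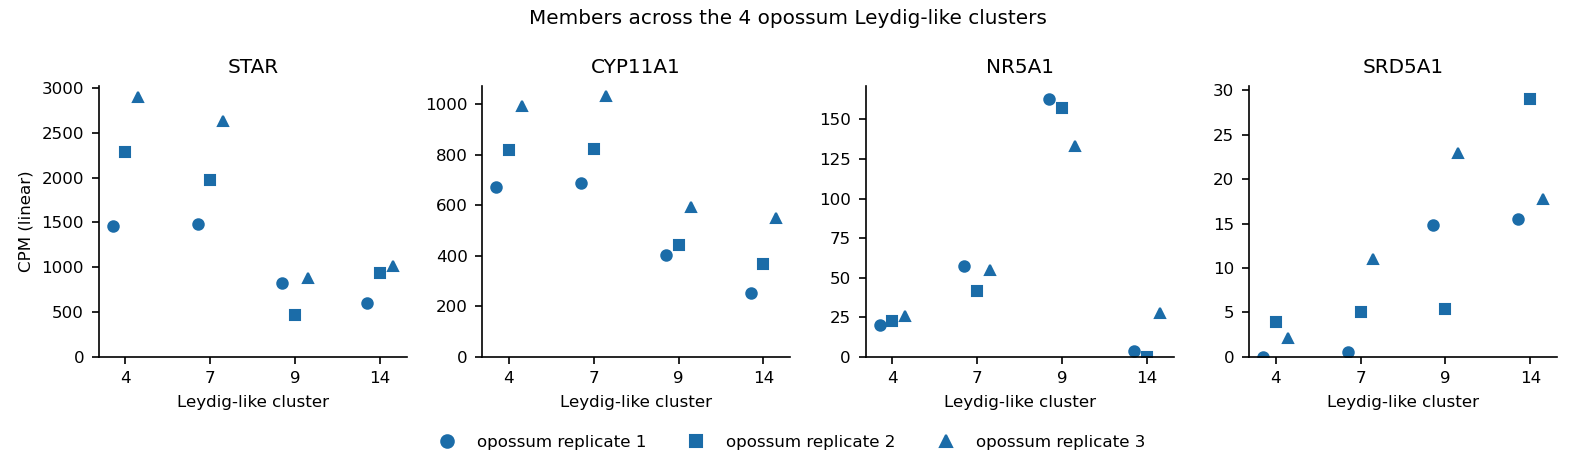
STAR, CYP11A1, NR5A1 and SRD5A1 in the 4 opossum Leydig-like clusters, in CPM on linear axes, with 1 point per replicate. NR5A1 is highest in cluster 9 in all 3 replicates (133 to 163 CPM), where STAR is at 464.5 to 876 CPM against 1458 to 2899 in clusters 4 and 7.

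Between species, STAR in Leydig-like cells was at like levels, while CYP11A1 and NR5A1 were lower in opossum. Summed counts of 10751 genes matched by name were compared with edgeR's quasi-likelihood test, and a gene was called at an adjusted p (Benjamini-Hochberg) under 0.05 with a log2 difference of at least 1 in size. CYP11A1 was lower in opossum by a log2 difference of -1.84 ± 0.36 (SE, adjusted p = 0.000464) and NR5A1 by -1.39 ± 0.39 (adjusted p = 0.00635). The 3 opossum libraries were all below the 3 mouse libraries for CYP11A1, and for NR5A1 the highest opossum library (69.6 CPM) was just above the lowest mouse library (69.1 CPM), so the ranges overlapped. STAR differed by 0.01 ± 0.37 (adjusted p = 0.979). SRD5A1 and CYP19A1 did not pass the filter on low counts in this class. In these cells 59.1% of the genes tested were called, so 2 of 3 is near the background, and species cannot be told apart from genome annotation.

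Outside Leydig-like cells STAR and SRD5A1 were higher in opossum in most classes where they could be tested. STAR was called higher in 6 of the other 8 classes. It was higher by 4.81 ± 0.30 in spermatogonia (adjusted p = 3.62e-06, 59.4% of genes called), by 3.54 ± 0.66 in spermatocytes (adjusted p = 0.00176, 63.3% called), and by 2.53 ± 0.55 in peritubular or stromal cells (adjusted p = 0.00367, 51.4% called). In round spermatids the difference was 6.44 ± 0.91 (67.9% of genes called), in elongating spermatids 5.86 ± 0.98 (69.8% called) and in endothelial cells 2.47 ± 0.79 (48.1% called). It was 1.38 ± 0.79 in Sertoli-like cells (adjusted p = 0.170, 39.7% called) and 2.25 ± 1.03 in immune cells (adjusted p = 0.140, 25.0% called), and neither passed. The endothelial and immune fits held 2 mouse libraries, and without mouse replicate 1 the endothelial call was lost (1.71, adjusted p = 0.225), which leaves a single mouse library assumed to vary like the others. Of the mouse immune libraries in the fit, STAR was at 47.0 CPM in replicate 2, on 2 of 22 cells, and at 0 in replicate 1.

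Every opossum class thus held STAR UMIs, immune cells (58.6 ± 16.1 CPM) and round spermatids (38.6 ± 9.89 CPM, SD, n = 3) among them, and Leydig-like cells were a larger share of the opossum cells (above). The part of free RNA in these differences was not tested. Of 3092 opossum elongating spermatids 2000 were in 1 cluster with a median depth of 1198 UMIs, led by the globin gene HBE1. There 5 elongating markers passed, against 8 to 15 in the other 3 clusters, so its name is uncertain. STAR was at 113.6 CPM in it and at 4.10 to 23.0 CPM in the other 3. Without that cluster the elongating difference was 5.23 (adjusted p = 0.000769). Without mouse replicate 1 it was fitted at 10.1 against mouse libraries whose summed STAR estimate was 0, so that value is no bound.

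SRD5A1 was called higher in opossum in Sertoli-like cells (2.97 ± 0.80, adjusted p = 0.00509), peritubular or stromal cells (3.51 ± 0.84, adjusted p = 0.00621), spermatogonia (1.97 ± 0.39, adjusted p = 0.00146) and spermatocytes (3.79 ± 0.68, adjusted p = 0.00147). In round spermatids, elongating spermatids and immune cells its differences of 0.45, 0.93 and 0.32 did not pass. In Sertoli-like cells the call was lost without mouse replicate 1 (2.92, adjusted p = 0.0558). In peritubular or stromal cells it was fitted at 8.03 without mouse replicate 1, against mouse libraries at 0, and is likewise no bound. The mouse clusters of that class had SRD5A1 at 2.42 and 0 CPM. Both lay below the floor of 2.52 CPM, which is 3 counts over the mouse group, so the size of 3.51 is uncertain too.

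CYP19A1 was lower in opossum spermatocytes by -4.75 ± 0.92 (adjusted p = 0.00215), round spermatids by -2.37 ± 0.95 (adjusted p = 0.0373) and elongating spermatids by -4.47 ± 0.85 (adjusted p = 2.53e-05). The size in spermatocytes rests in part on mouse replicate 3, at 320 CPM, and without it the difference was -3.11 (adjusted p = 6.96e-05). The call in round spermatids was lost without mouse replicate 3 (-1.68, adjusted p = 0.117), opossum replicate 1 (-1.99, adjusted p = 0.121) or opossum replicate 3 (-1.95, adjusted p = 0.127). Without opossum replicate 2 it was fitted at -8.79 against opossum libraries whose summed estimate was 0, which is no bound. In elongating spermatids it was -4.54 without the cluster of lowest depth (adjusted p = 0.000587).

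A contrast within each species removes what shifts a whole library. The difference between Leydig-like and Sertoli-like cells was therefore compared between species with an interaction term. SRD5A1 was the 1 gene of 5 called, with a log2 difference of 1.62 ± 0.98 in mouse and -1.71 ± 0.68 in opossum and an interaction of -3.33 ± 1.19 (adjusted p = 0.0435), against 22.5% of all genes called. It passed the low-count filter with Sertoli-like cells in the fit but not in Leydig-like cells alone. Without mouse replicate 3 the interaction was -1.65 (adjusted p = 0.411), so the call rests on that library, whose Leydig-like cells had 28.9 CPM. The call was also lost without opossum replicate 1 or 2, at like sizes of -3.30 and -3.09 (adjusted p = 0.0686 and 0.0996).

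STAR and CYP11A1 were far higher in Leydig-like than in Sertoli-like cells of both species, and the interaction was not called for either, nor for NR5A1 or CYP19A1. STAR was higher by 7.19 ± 0.91 in mouse and 5.59 ± 0.84 in opossum (interaction -1.60 ± 1.05, adjusted p = 0.303). CYP11A1 was higher by 8.04 ± 1.15 and 8.45 ± 1.22 (interaction 0.41 ± 1.35, adjusted p = 0.882). NR5A1 differed by 2.18 ± 0.59 in mouse and 1.17 ± 0.58 in opossum (interaction -1.02 ± 0.83, adjusted p = 0.430), and CYP19A1 by -3.15 ± 1.28 and 1.76 ± 1.57 (interaction 4.91 ± 2.07, adjusted p = 0.0899). The mouse Leydig-like cluster had CYP19A1 at 0.798 CPM, below the 1.31 CPM of 3 counts over that group, so the CYP19A1 sizes are uncertain. Of all genes 30% were past the threshold for the contrast in mouse and 26.4% in opossum. An unnamed opossum cluster of 2052 cells had 6 Sertoli markers, with the red cell gene ALAS2 among its leading genes. With it counted as Sertoli-like, STAR was also called (-2.18, adjusted p = 0.0288).

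Set against peritubular or stromal cells, 3 of the 5 genes were called. The interaction was -2.52 ± 0.56 for STAR (adjusted p = 0.00812), -4.55 ± 1.03 for CYP11A1 (adjusted p = 0.00901) and -3.76 ± 1.20 for SRD5A1 (adjusted p = 0.0484), while 15.4% of all genes were called. SRD5A1 did not pass the low-count filter in Leydig-like cells alone, and its level in mouse peritubular or stromal cells was below the floor (above). CYP11A1 was higher in Leydig-like cells by 10.1 ± 0.81 in mouse and 5.54 ± 0.59 in opossum, and STAR by 7.88 ± 0.47 and 5.36 ± 0.38. In mouse peritubular or stromal cells CYP11A1 was at 5.56 and 0 CPM by cluster, against the floor of 2.52 CPM. It did not pass the low-count filter in that class alone. The Leydig excess of both genes was thus smaller in opossum, but for CYP11A1 the size in mouse and of the interaction is uncertain. Peritubular or stromal cells of opossum replicate 3 had a STAR to CYP11A1 ratio near that of Leydig-like cells, and those of replicate 1 a lower one (above). The part of this in the result was not tested. NR5A1 (-0.15 ± 0.61, adjusted p = 0.927) and CYP19A1 (2.61 ± 1.77, adjusted p = 0.366) did not pass, the latter again with mouse Leydig-like cells below the floor. Without mouse replicate 3 the value for SRD5A1 was -1.52 (adjusted p = 0.477). The SRD5A1 call was also lost at like sizes without mouse replicate 2, opossum replicate 2 or opossum replicate 3 (-3.68, -3.73 and -3.90, adjusted p = 0.0756, 0.117 and 0.0885), and without mouse replicate 1 it was fitted at -8.84 against mouse peritubular or stromal cells at 0.

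**Figure D3:**
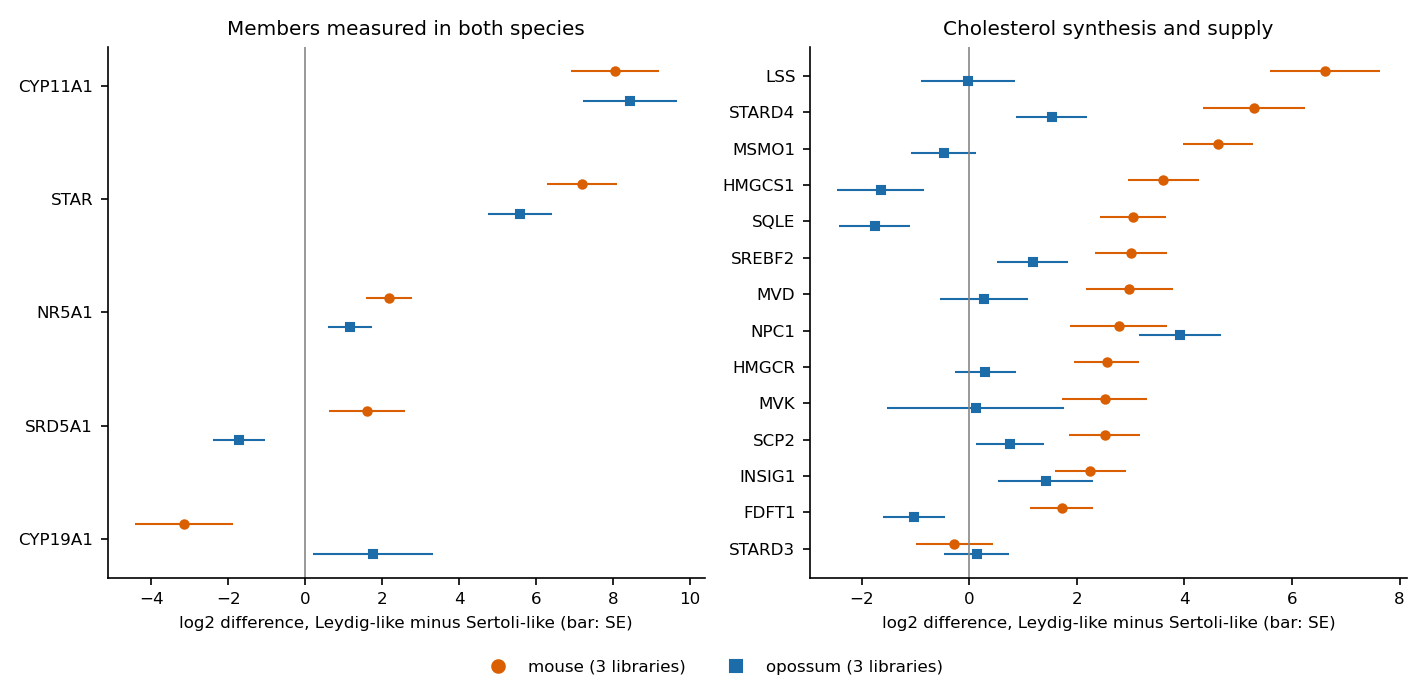
Difference between Leydig-like and Sertoli-like cells in log2 units with its standard error, in mouse and opossum, for 5 of the steroid synthesis genes on the left and 14 genes of the cholesterol synthesis and supply list on the right. STAR and CYP11A1 lie between 5.59 and 8.45 in both species, and most cholesterol genes lie above 0 in mouse and near 0 in opossum.

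The other genes of the pathway were taken from 4 lists. In mouse, 14 of 15 tested genes of cholesterol synthesis and supply were higher in Leydig-like than in Sertoli-like cells, beside 30% of all genes called (median log2 difference 2.97, against 0.17 over all genes), and the remaining one, STARD3, differed by -0.28. In opossum 2 of 15 were higher and 1 lower, beside 26.4% (median 0.27, against 0.26). NPC1 (3.92), which moves cholesterol out of lysosomes, was among the higher, and the lower one was SQLE (-1.76), squalene epoxidase. The interaction was called for 7 of 15, all lower in opossum, beside 22.5% of all genes, with a median of -2.41 against 0.03 over all genes. Among them were LSS (-6.64) and HMGCS1 (-5.26). Over the alternative settings 4 to 8 genes of the list were called lower and 0 higher, except 1 higher at a minimum of 2000 UMIs. Set against peritubular or stromal cells, 13 of 15 were higher in mouse and 0 lower (median 2.41, against -0.09 over all genes). In opossum 6 of 15 were then higher and 3 lower (median 0.61, against -0.08). That interaction was called for 7 of 15, all lower in opossum, beside 15.4% of all genes.

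The levels show the same genes directly. HMGCS1, which feeds the mevalonate pathway, was at 470 ± 73.6 CPM in mouse Leydig-like cells and 2.23 ± 2.07 CPM in opossum (SD, n = 3). MSMO1, a sterol oxidase, was at 574 ± 25.4 and 12.3 ± 2.32 CPM, and SQLE at 163 ± 40.6 and 5.02 ± 1.02 CPM (SD, n = 3). HMGCS1, MSMO1 and SQLE thus separated the species without overlap. In the test between species 10 of 15 cholesterol genes were lower and 2 higher in opossum Leydig-like cells, beside 59.1% of all genes called (median -2.43, against 0.15 over all genes). The 2 higher were STARD3 (1.51 ± 0.44) and NPC1 (1.495 ± 0.44). In spermatogonia 10 of 15 were lower and 1 higher (median -1.52, against -0.18), beside 59.4% of all genes, so lower calls prevailed there too. In round spermatids 6 of 12 were lower and 2 higher, beside 67.9%, and in spermatocytes 6 of 14 lower and 4 higher, beside 63.3%. In Sertoli-like cells 1 of 8 was lower and 0 higher, beside 39.7%. Peritubular or stromal cells had 2 of 11 lower and 2 higher, beside 51.4%.

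Of the other steroid enzymes 2 of 7 were higher and 1 lower in opossum Leydig-like cells. HSD3B7, a 3-beta-hydroxysteroid dehydrogenase of bile acid synthesis, had 75.5 ± 32.3 CPM (SD, n = 3) in opossum and a summed estimate of 0 in mouse, so it was at least 57.6-fold higher against a floor of 3 counts over the mouse group (1.31 CPM). HSD17B11 was higher by 1.38 ± 0.38. POR, the electron donor of microsomal P450 enzymes such as CYP17A1, was lower by -3.26 ± 0.39, with 98.6 ± 9.72 CPM in mouse and 10.3 ± 3.91 CPM in opossum (SD, n = 3). It was called lower in other classes too, by -5.29 in round spermatids, -3.60 in peritubular or stromal cells, -3.19 in endothelial cells, -3.01 in spermatocytes and -2.74 in spermatogonia. Of 11 receptor and signalling genes 3 were higher and 4 lower, among them the estrogen receptor gene ESR2 and the progesterone receptor gene PGR (at least 21.2-fold and 15.8-fold higher against the same floor) and the adenylate cyclase ADCY3 (-4.74 ± 0.65). Of 8 transcription factors 4 were higher and 2 lower, among the lower CEBPB (-2.76 ± 0.57). PGR was also called higher in Sertoli-like, peritubular or stromal and endothelial cells and in spermatocytes. These counts stand beside the 59.1% of all genes called in this class.

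In the Leydig to Sertoli contrast genes of the receptor and transcription factor lists were called in both directions and enzymes only as higher, beside 30% of all genes in mouse and 26.4% in opossum. Of 8 enzymes 4 were higher in Leydig-like cells in each species, and HSD17B11 was among them in both (4.65 in mouse, 7.37 in opossum). Of 13 receptor and signalling genes 4 were higher and 2 lower in mouse, and 6 and 2 in opossum. RXFP2, the receptor for INSL3, was lower in Leydig-like cells in both species (-5.76 and -6.05). Of 9 transcription factors NR2F2 (8.40 and 7.00) was higher in both.

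In bulk opossum testis the genes followed different courses with age. Levels are in TPM, which is per transcript length, and differences are in log2(TPM + 1) from a limma fit over all 20 libraries with library type as a term. A fold on this scale understates the change of low genes. In bulk, fewer cells of a type and less RNA per cell cannot be told apart.

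NR5A1 was at 1.80 and 1.30 TPM in the 1-month libraries and at 52.8, 45.7, 52.2 and 60.4 TPM in the 2-month libraries. It was at 33.1, 45.8, 41.8 and 29.97 TPM at 3 months and at 87.3, 34.7 and 10.51 TPM at 4 months. In adults it ran from 3.54 to 45.8 TPM with a median of 31.7, and the lowest values, 3.54 and 11.4, belonged to 2 of the libraries that stood apart. All later libraries lay above both 1-month libraries. NR5A1 was higher at 2 months than at 1 month by 3.93 ± 0.94 (SE, adjusted p = 0.0107), where 11.1% of genes were called, and higher in adults than at 1 month by 3.11 ± 0.73 (adjusted p = 0.00194), where 44.8% were called. The first call was lost without either 1-month library, at 4.07 and 3.79 (adjusted p = 0.0660 and 0.0922), which leaves that age with a single library assumed to vary like the others, and without 2-month replicate 1 (3.22, adjusted p = 0.148).

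Genes with other roles had nearly the same pattern as NR5A1. Over the 20 libraries and 10140 named genes the highest Pearson r of log2(TPM + 1) with NR5A1 was that of GANAB (0.985), a glucosidase of protein folding in the endoplasmic reticulum, followed by HDAC6 (0.976) and PFKL (0.973). GANAB was at 1.72 and 1.16 TPM at 1 month, 72.6 to 83.9 TPM at 2 months, and 14.4, 12.0 and 6.77 TPM in 4-month replicate 3 and adult replicates 1 and 3. The ratio of NR5A1 to GANAB was at least 1.05 at 1 month and 0.629 to 0.759 at 2 months. The ratio to HDAC6 was 2.33 and 2.44 at 1 month and 3.51 to 5.03 at 2 months, so against that gene NR5A1 was lower at 1 month. What sets the level of this group of genes, and its part in the NR5A1 result, was not tested. The mean of 13 Leydig markers was 0.43 higher on the log2 scale at 2 months than at 1 month, and NR5A1 less that mean was 3.97 higher, against 4.40 in plain group means. The sum of 10 Sertoli markers had medians of 117.5 TPM at 1 month and 190.6 TPM at 2 months. Among them the WT1 median rose from 10.8 to 55.6 TPM, while SOX9 fell from 49.6 to 33.6 and FSHR from 13.1 to 11.9 TPM. Their part in the NR5A1 course was not tested.

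**Figure D4:**
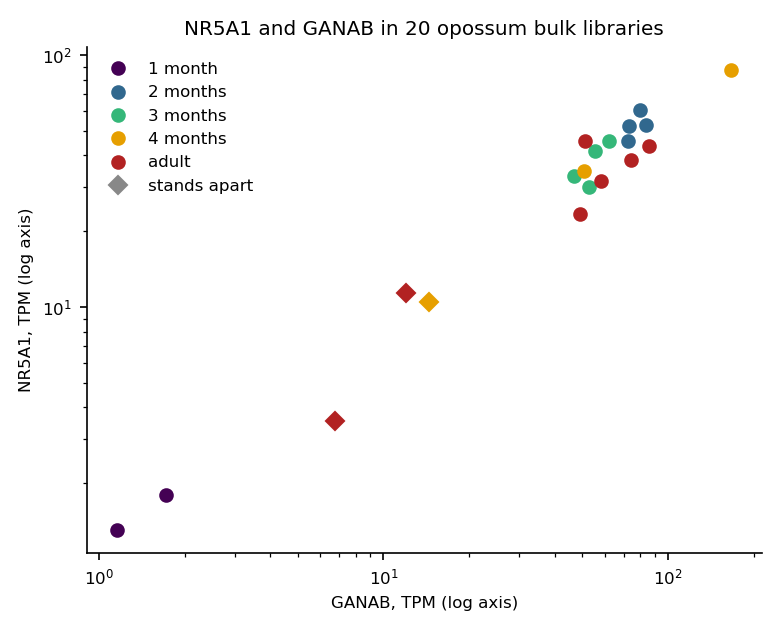
NR5A1 against GANAB in TPM on log axes in the 20 opossum bulk libraries, coloured by age, with diamonds for the 3 libraries that stood apart. The points follow 1 line, with both 1-month libraries at the lower end (1.30 and 1.80 TPM of NR5A1) and the 3 libraries that stood apart between them and the rest.

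CYP19A1 was listed at 0.0204 and 0 TPM at 1 month and at 2.88, 9.03, 4.14 and 0.317 TPM at 2 months. At 3 months it was at 30.1, 24.5, 23.7 and 24.8 TPM, at 4 months at 12.5, 12.6 and 14.3 TPM, and in adults between 3.15 and 22.3 TPM with a median of 8.68. The 3-month libraries lay above every other library, and the 2-month libraries below them without overlap. It rose from 1 to 2 months by 2.60 ± 0.75 (adjusted p = 0.0310) and from 2 to 3 months by 2.12 ± 0.66 (adjusted p = 0.0263), where 23.0% of genes were called. Adults were above 1 month by 3.499 ± 0.58 (adjusted p = 9.74e-05).

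Both calls between neighbouring ages were lost when some single libraries were left out. The first was not called without either 1-month library, at 2.61 and 2.58 and so of like size (adjusted p = 0.144 and 0.158), or in poly(A) libraries only (1.94, adjusted p = 0.0755). The second was lost without 2-month replicate 1, the only poly(A) library of that age (1.14, adjusted p = 0.665), which lowered its size, and without 3-month replicate 1 (2.05, adjusted p = 0.0541), which did so little. Spermatocyte markers moved in the same order: the sum of 22 of them had medians of 201, 917, 5858, 3566 and 2303 TPM at 1, 2, 3, 4 months and in adults, over ranges of 239 to 1872 at 2 months and 5165 to 6471 at 3 months. Their part in the CYP19A1 course was not tested. The most like genes were CCT6B (r = 0.981), TMEM159 (0.978) and HYLS1 (0.978), and CCT6B, a chaperonin subunit of the testis, was at 312 ± 6.98 CPM (SD, n = 3) in opossum spermatocytes.

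STAR was at 439 and 458 TPM at 1 month and at 629, 217, 244 and 481 TPM at 2 months. At 3 months it was at 195, 223, 190.2 and 175 TPM, at 4 months at 820.5, 213 and 262 TPM, and in adults between 134 and 550.0 TPM with a median of 221. The 3-month libraries were close together and the other ages from 2 months on were spread. No age difference was called: -0.02 ± 0.70 from 1 to 2 months (adjusted p = 0.991), -1.18 ± 0.61 from 2 to 3 months (adjusted p = 0.165) and -0.92 ± 0.54 from 1 month to adult (adjusted p = 0.159). In every library the deposited coverage of STAR was 0.0864 to 0.101 of what its FPKM implies, against about 1 for CYP11A1 and CYP19A1, so its TPM was compared between libraries only.

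CYP11A1 was at 118 and 110.2 TPM at 1 month and at 288, 88.6, 109 and 71.2 TPM at 2 months. At 3 months it was at 71.8, 87.9, 75.5 and 61.3 TPM, at 4 months at 245, 72.4 and 279.6 TPM, and in adults between 38.6 and 143 TPM with a median of 46.3. The 4-month libraries held both high values and one in the range of 3 months. The difference from 2 to 3 months was -1.51 ± 0.57 (adjusted p = 0.0621). It rests on 2-month replicate 1, the highest library of that age, without which it was -0.84 (adjusted p = 0.737), and with no library type term it was -0.69. Its adjusted p over the alternatives ran from 0.0245, without the 3 libraries that stood apart, to 0.737. From 4 months to adult the difference was -1.38 ± 0.43 (adjusted p = 0.319), and its adjusted p over the alternatives ran from 0.0548 to 0.562. SDs within an age reached 111 TPM.

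Between 3 and 4 months limma called 0 of 19300 genes, with 1686 at an unadjusted p under 0.05 and CYP11A1 among them (1.20 ± 0.47, adjusted p = 0.497). Between 4 months and adult it called 5 genes (0.0259%) and none of the 5 members. CYP19A1, whose 3-month libraries all lay above the 4-month and adult ones, differed by -0.92 ± 0.54 from 3 to 4 months (adjusted p = 0.603). The difference from 3 months to adult was not tested.

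No age difference was called for SRD5A1. Its means were 9.77 ± 1.16 TPM at 1 month (n = 2), 5.44 ± 2.49 at 2 months (n = 4), 10.52 ± 4.25 at 3 months (n = 4), 10.4 ± 6.79 at 4 months (n = 3) and 10.9 ± 7.86 in adults (SD, n = 7). The highest library was adult replicate 3 at 27.8 TPM, and all 5 differences lay between -0.13 and 0.21 with adjusted p from 0.864 to 0.939. With no library type term the difference was -0.82 from 1 to 2 months and 0.85 from 2 to 3 months (adjusted p = 0.336 and 0.238).

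Pearson r of CYP11A1 with STAR across the bulk libraries was 0.715 over 20 libraries, which share ages and library types, while r with NR5A1 was 0.06 for STAR and -0.02 for CYP11A1. The genes most like CYP11A1 were HSD3B7 (0.926), FAAH2 (0.881) and SDSL (0.879). HSD3B7, like CYP11A1, had its highest single-cell level in opossum Leydig-like cells, and medians of 28.1, 29.6, 15.7, 54.5 and 13.4 TPM from 1 month to adult. Most like STAR were CMPK1 (0.876), NR2F2 (0.858) and GRM6 (0.843), and most like SRD5A1 were PPP2R3C (0.908), PIGF (0.904) and GMFB (0.900).

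Genes of the pathway lists called between ages are given beside the share of all genes called. From 1 to 2 months 1 of 14 cholesterol genes was called, STARD3 (4.41), along with POR (4.47) and HSD17B4 (1.80) of 11 enzymes, beside 11.1% of all genes. STARD3 had 2.11 and 2.77 TPM and POR 0.106 and 0.155 TPM in the 1-month libraries. At the same step PDE4B (2.48), a phosphodiesterase that breaks down cyclic AMP, rose and PRKAR1A (-1.14), a regulatory subunit of protein kinase A, fell, of 14 receptor and signalling genes, and NR0B2 (-1.51), a nuclear receptor that represses others, fell, of 10 transcription factors. From 2 to 3 months SQLE rose (1.66) while MSMO1 (-1.60) and MVD (-1.03) fell, of 14 cholesterol genes, beside 23.0% of all genes. Of 11 enzymes SRD5A3 (-1.71) fell. Of the 14 receptor and signalling genes PRKAR2B (2.38), another protein kinase A subunit, and PDE4B (1.79) rose and MC2R (-1.18), the corticotropin receptor, fell, and no transcription factor of the list was called. From 1 month to adult 4 of 14 cholesterol genes rose and 1 fell, 2 of 11 enzymes rose and 2 fell, 3 of 14 receptor and signalling genes rose and 4 fell, and 2 of 10 transcription factors rose and 2 fell, beside 44.8% of all genes. RXFP2, the INSL3 receptor, rose by 3.57 over that span, and ESR1, an estrogen receptor, fell by 2.07. None of these lists had a called gene between 3 and 4 months or between 4 months and adult, where 0 and 5 of all 19300 genes were called.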

How the data were processed

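The data were 3 mouse and 3 opossum single-cell testis libraries and 20 bulk libraries of opossum testis. The deposited single-cell values are estimated counts (UMIs, not whole numbers) per gene and barcode, for which Cell Ranger 6.0.1 is named per the submitters' processing notes. The tool that made them fractional is not given in the sources used here, and 1.66% to 6.49% of the stored entries are 0. The deposited bulk tables hold coverage, FPKM and TPM per gene, per the file headers, and the submitters' processing notes name HISAT2 2.2.1, SAMtools 1.12 and StringTie 2.1.4. Those notes name GRCm39, a mouse build. The build ASM229v1 is named on opossum single-cell replicate 3 per the labels, and the opossum build of the bulk tables is not given in the sources used here. The authors' coverage was used for depth, and FPKM as an alternative to TPM.

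Barcodes under 1000 UMIs or 500 genes were dropped, and in each library the 8% of cells with the highest doublet scores were removed, since the automatic threshold marked 0% to 1.97%. With scanpy 1.11.5 and leidenalg 0.10.2, 2000 variable genes, 30 components and Leiden resolution 1 gave clusters, which were named from marker lists (at least 3 markers). The 10 genes and 75 pathway genes were left out of both steps. Estimated counts were summed per library and class (at least 20 cells), rounded and tested with edgeR 4.0.16 (quasi-likelihood, TMM, low counts filtered). Bulk log2(TPM + 1) values of 19300 genes with at least 1 TPM in at least 2 libraries were tested with limma 3.58.1 in 1 fit. Calls need an adjusted p (Benjamini-Hochberg) under 0.05 and a log2 difference of at least 1. Both scripts were tested on simulated data. Between species 81% of log2 changes of 2 and 18% of log2 changes of 1 were recovered. In bulk 83% (2 to 3 months) to 97% (4 months to adult) of log2 changes of 4 were recovered. For log2 changes of 2 it was 20% (1 to 2 months) to 64% (4 months to adult), so a change not called may have been missed. Each simulation changed 100 genes per size, drawn from well expressed genes, and in bulk had no effect of library type. In most comparisons of the data far more genes were called. These shares therefore need not hold for the data, least of all for low genes.

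Named were all 10 genes, the 3 bulk genes of highest Pearson r with each, and the 2 largest called changes per list and direction; other genes are named for their levels, and some list genes that count in the totals are not reported here by name. The members and lists were chosen with earlier results of these data known. Alternatives were DESeq2 1.42.0, other size factors and filters, other cell filters and clusterings, another pseudocount (0.1), other library sets, leaving out each replicate, leaving out clusters, and the replicate number as a block. R was 4.3.3. Promoter letters come from GRCm39 with GENCODE vM39.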

Additional observations from a re-analysis of the deposited data

Results flagged for a closer look

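In 15 groups of 4 to 7 bulk libraries of 1 age and 1 gene, 2 had a library far from the others, and chance alone gives about 1 in 20. CYP19A1 at 3 months was highest in replicate 1 at 30.1 TPM, while the other libraries of that age were at 23.7 to 24.8 TPM. SRD5A1 in adults was highest in replicate 3 at 27.8 TPM, against 3.14 to 11.3 TPM in the others, and that library also stood apart over all genes.

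The species differed in a contrast between cell classes, by an interaction term in edgeR's quasi-likelihood test, for 4 gene and contrast pairs. In each contrast 5 of the genes were tested. The difference between Leydig-like and Sertoli-like cells was lower in opossum for SRD5A1 by -3.33 (adjusted p = 0.0435), beside 22.5% of all genes called. The difference between Leydig-like and peritubular or stromal cells was lower in opossum for STAR by -2.52 (adjusted p = 0.00812), for CYP11A1 by -4.55 (adjusted p = 0.00901) and for SRD5A1 by -3.76 (adjusted p = 0.0484). There 15.4% of all genes were called, and the size for CYP11A1 is uncertain (above). Both SRD5A1 values were lost without mouse replicate 3 (adjusted p = 0.411 and 0.477), and the gene did not pass the low-count filter in Leydig-like cells alone.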

How the results depend on the processing

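In Leydig-like cells 2 of 3 genes were called between species under every alternative run, and 12 of 15 gene and species pairs stayed highest in Leydig-like cells at a minimum of 2000 UMIs and by share of cells. For the Leydig to Sertoli contrast 1 gene was called, but 0 with DESeq2 (SRD5A1 adjusted p = 0.0814), 2 at Leiden resolution 2 (STAR -2.15, adjusted p = 0.0300), 2 with the unnamed opossum cluster counted as Sertoli-like, and 0 to 1 when each replicate was left out. Against peritubular or stromal cells 2 to 3 genes were called, SRD5A1 being the one lost. From 1 to 2 months 2 genes were called, but 1 in poly(A) libraries only, 1 with the replicate block (CYP19A1 2.81, adjusted p = 0.0817) and 0 to 2 with a replicate left out. From 2 to 3 months 1 was called, but 2 on FPKM (CYP11A1 -1.84, adjusted p = 0.0349), 2 without the 3 libraries that stood apart, 0 with the replicate block (CYP19A1 1.95, adjusted p = 0.0960) and 0 to 1 with a replicate left out. Not every same-numbered pair deviated together (r from -0.285 to 0.672, the highest being replicate 3 at 4 months and in adults, and 0.0286 to 0.0798 between species), so the numbers were not taken to pair samples, and the block changed no other member call. Less the Leydig marker list, the untested differences from 1 to 2 months were -0.37 for CYP11A1 and -1.25 for SRD5A1.

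Over all genes, the 2142 calls from 1 to 2 months became 5156 without a library type term, 5812 without the 3 libraries, 1074 in poly(A) libraries, 1006 with the block, 608 and 582 without a 1-month library and 1043 without 2-month replicate 1. From 2 to 3 months the 4440 calls became 2804 with the block, 6993 without the 3 libraries and 141 without 2-month replicate 1. From 3 to 4 months 0 became 0 to 33 and from 4 months to adult 5 became 0 to 127, the highest without 4-month replicate 2 and without the 3 libraries. From 1 month to adult 8647 became 5515 and 5438 without a 1-month library. Single-cell calls for the Leydig to Sertoli contrast fell from 1758 to 906 at 2000 UMIs and 1148 without mouse replicate 1, and for the peritubular contrast from 1272 to 683 to 804 without mouse replicate 1, mouse replicate 2 or opossum replicate 2. The causes were not tested. Leaving out a library in the 8 other classes, or an elongating cluster, was added after seeing the data. Of 716 alternative values for single genes 680 counted as the same, 434 of them called in neither fit. Tested values counted as the same when they kept their side of the threshold. Values without a test did so when they moved by less than their SD. Of the rest 26 lost a call, 8 gained one and 2 untested ones moved, and no called gene changed sign. Among the 434 values called in neither fit, 50 had the other sign. Low counts limit SRD5A1 and CYP19A1 in Leydig-like cells, where neither passed the filter.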
